A study of Equus caballus with 4 samples.

Results

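The autophagy and mitophagy genes described here were MAP1LC3B, GABARAPL1, SQSTM1, BECN1, ATG5, ATG7, ATG12, ULK1, BNIP3 and BNIP3L. Every gene probe of the horse array whose gene name was exactly one of these 10 symbols was taken. This gave 20 probes of 9 genes, among 43603 gene probes with 24998 different gene names. No probe carried the name BNIP3. The cells were equine satellite cells, stem cells of skeletal muscle that form new fibres by fusion, isolated from m. semitendinosus of young stallions. One primary cell line was chosen for the study. In the examined condition, differentiating cells were kept with 0.125 µM gamma-oryzanol (GO), which is a group of ferulic acid esters found in rice bran, over 24 h. During the last 1 h of this, on day 3 of differentiation, 3 mM hydrogen peroxide (H2O2) was present. The control was differentiating cells of the same day without GO. Per the study's methods its medium held the vehicle DMSO. Whether the control received H2O2 is not in the labels, and the study describes it as exposed.

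RNA of both conditions was hybridised on 4 Agilent arrays of 1 slide, with GO and H2O2 in the red channel (Cy5) and control in the green channel (Cy3) each time. Dyes were not swapped, so that a dye difference and a treatment difference cannot be told apart. The labels give 4 control cultures in the design text, but mark the control as replicate 1 on every array, so it is not settled that the green channels hold 4 separate cultures. If they hold 1 culture, the 4 ratios share its error, while the tests take them as independent. With 1 primary cell line chosen, the arrays do not measure variation between horses. The log2 ratio below is red over green, so that values above 0 are those with more signal in the treated cells. Signals are normalised and linear, in arbitrary units. Errors are SDs over the 4 arrays. The number of arrays limits the precision. Between 54.9% and 61.4% of gene spots were well above background in a channel of an array, and 24233 probes were tested. In bulk RNA, fewer cells of a type and less RNA per cell cannot be told apart.

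Autophagy encloses cytoplasm in a double membrane and delivers it to the lysosome. The ULK1 kinase complex and the lipid kinase complex that holds BECN1 start the membrane. ATG7 activates ubiquitin-like proteins, ATG12 is joined to ATG5, and this conjugate helps to attach the ATG8 family proteins, among them MAP1LC3B and GABARAPL1, to the lipid of the membrane. SQSTM1 (p62) links ubiquitinated cargo to ATG8 proteins. BNIP3 and BNIP3L sit in the outer mitochondrial membrane and direct mitochondria to autophagy. In skeletal muscle this pathway removes damaged mitochondria and proteins and takes part in the wasting of fibres. Much of its control acts on proteins rather than on transcripts, and the arrays measure transcripts only.

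The 5 probes of GABARAPL1 are shown because they made up most of the member probes past the threshold, and because they are nearly the same sequence. Each is 60 bases long and starts 1 base away from the next, and capitals mark the 56 bases that all 5 share.
A_69_P051935: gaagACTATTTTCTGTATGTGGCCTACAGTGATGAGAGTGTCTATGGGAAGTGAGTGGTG
A_69_P051934: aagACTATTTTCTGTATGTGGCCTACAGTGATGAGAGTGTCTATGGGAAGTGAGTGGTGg
A_69_P051933: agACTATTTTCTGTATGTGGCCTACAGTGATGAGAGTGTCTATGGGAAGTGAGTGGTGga
A_69_P051932: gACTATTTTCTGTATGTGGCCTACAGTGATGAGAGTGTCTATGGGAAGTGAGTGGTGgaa
A_69_P051931: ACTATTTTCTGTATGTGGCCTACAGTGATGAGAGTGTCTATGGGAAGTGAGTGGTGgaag

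The probes cover chr6:37478556-37478619 of EquCab1, the build named in the file headers, on the plus strand. They therefore measure 1 stretch of 1 transcript and are not separate evidence. The array annotation describes the transcript as GABARAPL3, a pseudogene in human, under the gene name GABARAPL1, and probes this similar to a paralog cannot be assigned with certainty. None of the 20 probes shared 20 or more bases with a probe of another gene name. Only probes of the array were searched, not transcripts, so this does not bear on which transcripts the probes bind. Whether a probe lies in coding sequence or in a UTR is not given here, as annotation of EquCab1 was not used.

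ATG5 was lower with GO and H2O2 at its single probe, and GABARAPL1 was higher at its 5 probes, which were dim and entered the test through the red channel alone, so that the filter favoured this direction. These were the only 2 of the 9 genes with a probe past the threshold, an adjusted p under 0.05. Of the 20 member probes, 14 were well above background on all arrays in both channels, and 1 of them passed (ATG5), against 16.9% of the 22909 tested probes of that kind. The other 6 member probes, the 5 of GABARAPL1 and that of ULK1, passed the filter through red only. For this reason the count of 6 passing member probes, 5 higher and 1 lower, is given as a description beside the shares over all tested probes (17.1% passed, 9.49% higher and 7.58% lower), and nothing is read from it. At the brightest probe of each gene, 1 of 9 genes was higher and 1 lower, with a median log2 ratio of −0.0017. Over all tested probes the median was 0.0029. Of the 20 probes, 10 pointed the same way on each of the 4 arrays (all probes 43.8%), and 12 had a positive mean (all probes 50.8%). Both counts hold the 6 probes that passed the filter through red only, and nothing is read from them either. Of the 14 probes above background in both channels, 6 had a positive mean. No member probe that was above background in both channels reached a fold change of 1.3, the limit in the study's methods, which 1.42% of all tested probes reached and passed. The 5 GABARAPL1 probes exceeded it, but against a green signal that was not above background on every array.

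**Figure D1:**
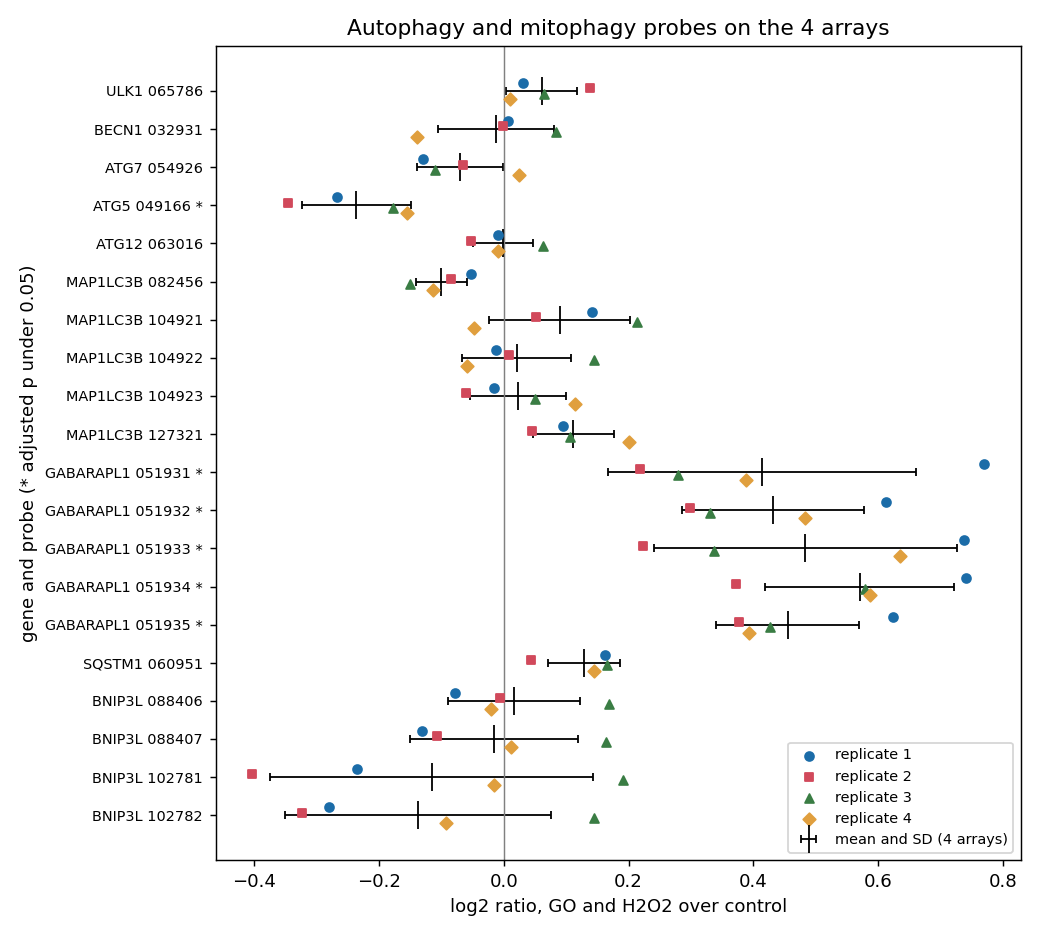
Log2 ratio of GO and H2O2 over control (x axis) of the 20 probes (y axis, gene and last digits of the probe name), with 1 symbol per array, black bars for mean and SD of the 4 arrays, and an asterisk for an adjusted p under 0.05. GABARAPL1 lay right of 0 on every array, from 0.22 to 0.77, ATG5 lay left of 0 on every array, and the other probes had means between −0.14 and 0.13.

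ULK1, the kinase that starts autophagosome formation, was dim. Its red signal was 108, 111, 105 and 115 on replicates 1 to 4, and its green signal 106, 101, 101 and 115. Both channels overlapped, and the green signal was well above background on replicate 1 only. The log2 ratio was 0.06 ± 0.06, positive on 4 of 4 arrays, with an adjusted p of 0.321 and a 95% interval of −0.04 to 0.16. The probe lies at chrUn:197139552-197139688.

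BECN1, the scaffold of the lipid kinase complex, had red signals of 1548, 1477, 1454 and 1497 and green signals of 1542, 1478, 1373 and 1649. On replicates 1 and 2 the channels differed by less than 1% (log2 ratios 0.0064 and −0.00067), replicate 3 was positive and replicate 4 negative. The mean was −0.01 ± 0.09, with an interval of −0.13 to 0.10 and an adjusted p of 0.869 (chr11:19062742-19062801).

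The conjugation genes went in different directions. ATG5, the acceptor of ATG12, had red signals of 1859.9, 1794, 2000.2 and 1665 and green signals of 2238, 2281, 2263 and 1854 on replicates 1 to 4. Red was below green on each array, although the lowest green signal, on replicate 4, lay within the range of the red signals. Its log2 ratios were −0.27, −0.35, −0.18 and −0.16. The mean was −0.24 ± 0.09, or 0.849 of the control level, with an interval of −0.35 to −0.13 and an adjusted p of 0.0262. The probe lies at chr10:51141262-51141321 on the minus strand, and 3.73% of tested probes had a lower mean ratio.

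ATG7, the activating enzyme for both ATG12 and the ATG8 proteins, had red signals of 356, 357, 352 and 324 and green signals of 389, 374, 380.3 and 319. Replicates 1 to 3 were lower in red and replicate 4 was slightly higher. The mean log2 ratio was −0.07 ± 0.07 (adjusted p = 0.278, interval −0.17 to 0.03, chr16:5680948-5681007). ATG12, the ubiquitin-like partner of ATG5, had a mean of −0.0017 ± 0.05. Its red signals ran from 801 to 871 and its green signals from 811 to 833, and its interval was −0.10 to 0.09 (adjusted p = 0.98, chr14:56113493-56113552). Thus only the ATG5 transcript of the ATG12 and ATG5 pair passed, while the difference between these genes was not tested.

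GABARAPL1, an ATG8 family member, had a positive log2 ratio on every array at each probe. Probe A_69_P051934 was well above background in green on replicate 2 only. It had red signals of 156, 164, 157 and 131 and green signals of 93.3, 126, 105 and 87.3 on replicates 1 to 4. Every red signal lay above every green signal. Its log2 ratios were 0.74, 0.37, 0.58 and 0.59, a mean of 0.57 ± 0.15 (adjusted p = 0.0125). Probe A_69_P051931, above background in green on 3 of 4 arrays, had red signals of 173, 201, 198 and 146 and green signals of 101, 173, 163 and 111. Here red was above green on each array, but the channels overlapped between arrays. The log2 ratios of A_69_P051931 were 0.77, 0.22, 0.28 and 0.39, a mean of 0.41 ± 0.25 (adjusted p = 0.0318). The means of the remaining 3 probes were 0.43 ± 0.15 (A_69_P051932, adjusted p = 0.0161), 0.48 ± 0.24 (A_69_P051933, adjusted p = 0.0228) and 0.46 ± 0.11 (A_69_P051935, adjusted p = 0.0131).

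Because the 5 GABARAPL1 probes read almost the same bases, their differences on an array describe part of the measurement error. Error that all spots of an array share is not in them. Averaged over the 5 probes, the ratio was 0.70 on replicate 1, 0.30 on replicate 2, 0.39 on replicate 3 and 0.50 on replicate 4. The probes of an array spanned between 0.16 and 0.30, while the arrays' averages spanned from 0.30 to 0.70. Whether the arrays differed by more than error was not tested. Replicate 1 was the highest array at each of the 5 probes. The mean of the 5-probe average was 0.47 ± 0.17, past the threshold (adjusted p = 0.0167). It averages the same stretch, which entered the test through red only, and is not separate evidence.

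The GABARAPL1 signals were close to background, which bears on the size of the change. All 5 probes were well above background in the red channel on 4 of 4 arrays, but in the green channel on 3, 2, 3, 1 and 2 arrays for A_69_P051931 to A_69_P051935. Of the 1001 tested probes that entered through red only, 200 passed higher and none passed lower, and their median log2 ratio was 0.10. Without any filter on dim probes, the GABARAPL1 adjusted p-values were 0.0090 to 0.029. The log2 ratio was 1.19 to 1.89 with Agilent's processed signals and 0.63 to 1.01 with normexp at an offset of 0, against 0.41 to 0.57 here. Red was above green on every array at each of these probes, while the size of the ratio depends on how the background is handled, and no fold change is given.

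**Figure D2:**
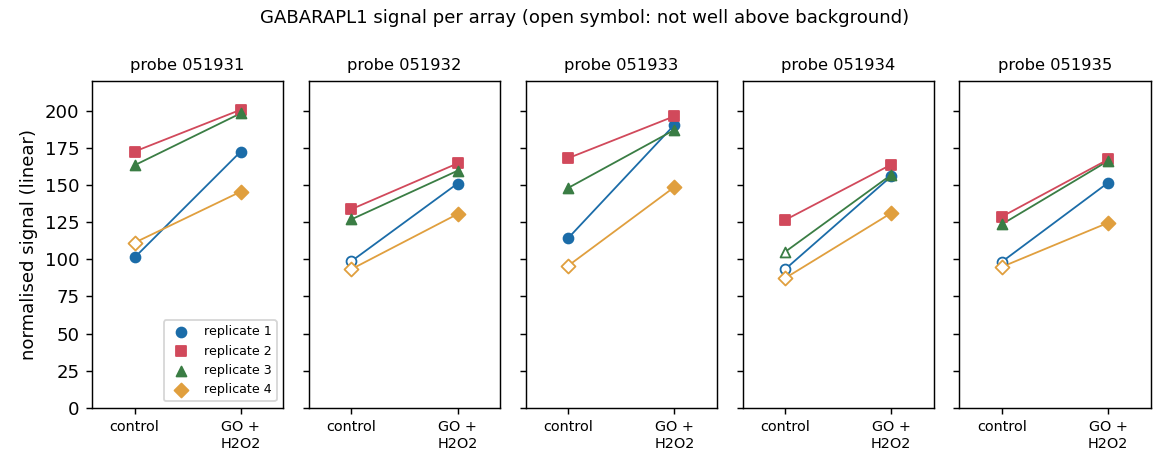
Normalised linear signal (y axis) of the control and the GO and H2O2 channel for each GABARAPL1 probe, with a line for each array and open symbols where the signal was not well above background. All 20 lines rise from control to GO and H2O2, and replicate 4 has the lowest signal with GO and H2O2 in each panel.

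MAP1LC3B, which codes for the LC3B protein on autophagosome membranes, had 5 probes in 3 places of chr3:34028224-34029875, and none passed. The first probe of the region is shown because its ratios had the opposite sign of its neighbour's.
A_69_P127321: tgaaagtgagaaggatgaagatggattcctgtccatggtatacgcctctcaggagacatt

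A_69_P127321 had red signals of 724, 724, 721 and 855 and green signals of 678, 702, 670.04 and 744. Red was above green on 4 of 4 arrays, with a mean log2 ratio of 0.11 ± 0.07 (adjusted p = 0.110). The next probe, A_69_P082456, starts 255 bases downstream. Its red signals were 1706, 1695, 1391 and 1627 and its green signals 1769.5, 1797, 1544 and 1760.3. Red was below green on 4 of 4 arrays at this probe, with a mean of −0.10 ± 0.04 (adjusted p = 0.116). The first minus the second was 0.15, 0.13, 0.26 and 0.31 on replicates 1 to 4, a mean difference of 0.21 ± 0.09. This difference was noticed in these values and was not tested. The 3 probes further downstream, which overlap each other by up to 40 bases, had means of 0.02 ± 0.08, 0.02 ± 0.09 and 0.09 ± 0.11, with ratios of both signs among the arrays. The brightest of them, A_69_P104922, had an adjusted p of 0.778 and an interval of −0.09 to 0.13. Averaged over the 5 probes, MAP1LC3B was at 0.03 ± 0.03.

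**Figure D3:**
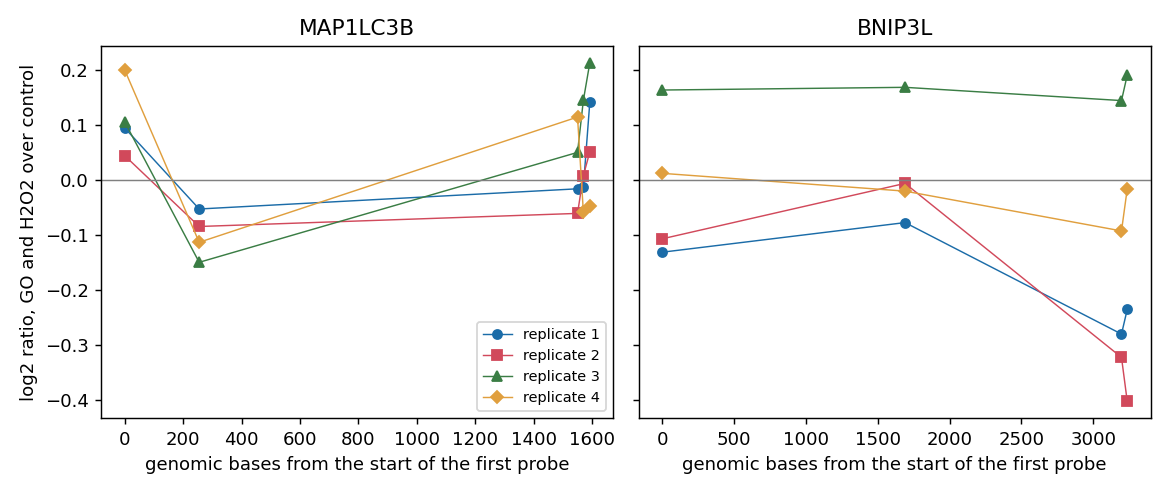
Log2 ratio of GO and H2O2 over control (y axis) at each probe of MAP1LC3B (left) and BNIP3L (right) against the genomic distance in bases from the first probe (x axis), with a line for each array. At MAP1LC3B all 4 arrays were positive at the first probe and negative at the second, while at BNIP3L replicate 3 was positive and replicates 1 and 2 were negative at each probe.

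SQSTM1, the cargo receptor p62, was measured by 1 probe at chr14:1898415-1898474 on the minus strand, shown because it was the member nearest to the threshold without passing.
A_69_P060951: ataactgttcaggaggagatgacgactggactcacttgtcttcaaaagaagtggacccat

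Its red signals were 1203, 1184, 1460.2 and 1021 and its green signals 1075, 1149, 1302 and 923. Red was above green on each array, with log2 ratios of 0.16, 0.04, 0.17 and 0.14, and replicate 2 was below the other 3 arrays. The mean was 0.13 ± 0.06 (1.09-fold), with an interval of 0.03 to 0.23 and an adjusted p of 0.0732. Of all tested probes, 18.8% had a higher mean ratio.

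BNIP3L (NIX), the receptor that removes mitochondria as red cells mature, had 4 probes on chrUn:48373673-48376968, and none passed. The probe A_69_P088406 had log2 ratios of −0.08, −0.01, 0.17 and −0.02, and A_69_P088407 had −0.13, −0.11, 0.16 and 0.01. The pair A_69_P102781 and A_69_P102782, which share 20 bases at the far end of the region, had −0.24, −0.40, 0.19 and −0.02, and −0.28, −0.32, 0.14 and −0.09. Replicates 1 and 2 were negative and replicate 3 was positive at every one of the 4 probes. The means were 0.02 ± 0.11, −0.02 ± 0.14, −0.12 ± 0.26 and −0.14 ± 0.21, with adjusted p-values of 0.256 to 0.868. The averages over the 4 probes were −0.18, −0.21, 0.17 and −0.03 on replicates 1 to 4, and the probes of an array spanned between 0.05 and 0.40.

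BNIP3, the paralog of BNIP3L, had no probe under its own gene name. The annotation describes 1 probe, A_69_P093821, named LOC100051673, as the BCL2/adenovirus E1B interacting protein that BNIP3 stands for. It was outside the rule, was found by its description, and its accession was not matched to BNIP3 in the gene table used here. This probe (chr1:1217052-1217111) had red signals of 9738, 9581, 9544 and 9466 and green signals of 10026, 9432, 8124 and 8366. Replicate 1 was lower in red and the other 3 arrays were higher. The mean log2 ratio of LOC100051673 was 0.10 ± 0.13, with an adjusted p of 0.252.

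The calls on GABARAPL1 and ATG5 depended on which arrays were included. Without replicate 1, 3 or 4, no member probe passed, and the adjusted p-values were 0.0573 to 0.112 for GABARAPL1 and 0.0652 to 0.107 for ATG5. Without replicate 2 all 6 passed. The mean log2 ratios stayed between 0.30 and 0.64 for GABARAPL1 and between −0.26 and −0.20 for ATG5. Over all probes, 2, 38 and 0 passed without replicate 1, 3 and 4, and 3900 without replicate 2. When arrays were centred on their median and loess was left out, the adjusted p-values were 0.419 to 0.565 for GABARAPL1 and 0.776 for ATG5. With the methods' t-test they were 0.0802 to 0.166 and 0.104.

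Other genes of the pathway were taken from a list of 64. Of these, 60 had a probe and 47 had a tested one, each read at its brightest probe. Among the 47, 3 passed higher and 1 lower (8.51%), beside 17.1% of all tested probes, and 25 had a positive mean. The first share counts genes at their brightest probe and the second counts probes, so they are not like for like. The median log2 ratio was 0.00032. No member of the ULK kinase complex (2 tested), the lipid kinase complex (4), the membrane supply group (7), the cargo receptors (6) or the lysosomal fusion group (6) passed. Of 5 conjugation enzymes and proteases 1 passed, of 2 other ATG8 genes 1, of 5 mitophagy genes 1, and of 10 regulators 1.

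TSC2, the inhibitor of the growth kinase MTOR, had red signals of 565, 579, 578 and 574 and green signals of 475, 515, 502 and 468. Red was above green without overlap, and the log2 ratio was 0.23 ± 0.05 (adjusted p = 0.0215). PHB2, an inner mitochondrial membrane protein that binds LC3 once the outer membrane is broken, had red signals of 2013, 2009, 2047 and 2219 and green signals of 1699.6, 1691, 1846 and 1913. Its channels did not overlap either, at 0.21 ± 0.05 (adjusted p = 0.0231). MAP1LC3A, the close relative of MAP1LC3B, had red signals of 717, 664, 712 and 721 and green signals of 650.3, 589, 579.7 and 635, and was at 0.20 ± 0.07 (adjusted p = 0.0310).

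ATG3, the enzyme that hands ATG8 proteins to the membrane lipid, was the gene that passed lower. Its red signals were 5429, 5438, 4964 and 5176 and its green signals 6247, 6474, 5659 and 5752. The log2 ratio was −0.20 ± 0.04 (adjusted p = 0.0254), and its second probe was at −0.09 ± 0.04 (adjusted p = 0.16). Without replicate 1, 3 or 4, none of these 4 genes passed. With Agilent's processed signals the adjusted p-values of MAP1LC3A and ATG3 were 0.0596 and 0.0515. GABARAPL2, another ATG8 gene, was at 0.07 ± 0.13 at its brightest probe, and 1 of its 3 probes passed higher (0.28 ± 0.15, adjusted p = 0.0343). FOXO3, a transcription factor of autophagy and atrophy genes, had means from 0.06 to 0.70 ± 1.00 at its 9 probes. Of these 3 passed higher, beside 9.49% of all tested probes, and the brightest did not pass (0.08 ± 0.14). GABARAPL2 and FOXO3 were named after their values were seen, and probes of a gene are not separate evidence. Nothing is read from their counts.

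**Figure D4:**
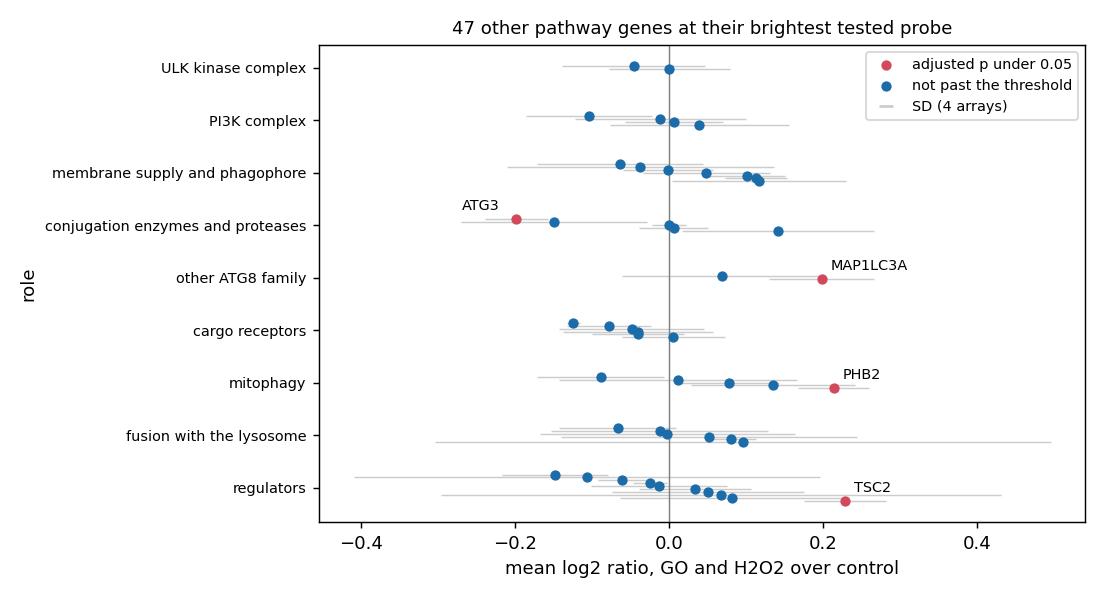
Mean log2 ratio of GO and H2O2 over control (x axis) of the 47 other pathway genes by role (y axis), with grey bars for the SD of the 4 arrays and red symbols for an adjusted p under 0.05. The 4 genes past the threshold are named; TSC2, PHB2 and MAP1LC3A lie right of 0 and ATG3 left of it.

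Of 9 listed markers of muscle cells, 8 had a tested probe, each read at its brightest one. At these, 4 genes passed higher, beside 9.49% of all tested probes, which is a share of probes rather than of genes. These were MYOG (0.33 ± 0.13), CKM (0.33 ± 0.21), MYH3 (0.25 ± 0.14) and NCAM1 (0.16 ± 0.05). ACTA1 (0.23 ± 0.17), MYOD1 (0.15 ± 0.22), MYF5 (0.09 ± 0.09) and DES (0.02 ± 0.14) did not pass, with adjusted p-values of 0.0613 to 0.809. Among genes with several probes, 2 of 2 MYOG probes, 1 of 3 NCAM1 probes and 0 of 6 MYF5 probes passed higher. Of the 2 MYOD1 probes 1 had a positive mean. All 8 genes had a positive mean at the brightest probe (median 0.20), as had 50.8% of all tested probes. Their summed signal was 150846 to 178115 in red and 130619 to 144014 in green, and most of it came from MYH3 and ACTA1. DES, the next brightest, had overlapping signals of 15890.2 to 16361 in red and 14395 to 17433 in green. PAX7, which marks undifferentiated satellite cells, had no probe. Of the fibroblast markers THY1 alone was tested and was higher (0.28 ± 0.14, adjusted p = 0.0290), at 632 to 779.9 in red and 457 to 642 in green. Of 4 listed immune markers 2 were tested. CD14 was lower (−0.17 ± 0.06, adjusted p = 0.0385) and CD68 was at 0.0049 ± 0.06, with summed signals of 3222 to 3705 in red and 3566 to 4121 in green. Most of this sum came from CD14, at 3060 to 3540 in red and 3407 to 3974 in green. CSF1R was not above background throughout a channel, and PTPRC had no probe. None of 4 endothelial and 2 adipocyte markers with a probe was above background throughout a channel. The part of these differences in the values of GABARAPL1, ATG5 and the other pathway genes was not tested.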

How the data were processed

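RNA of equine satellite cells was measured on 4 two-colour Agilent arrays. The deposited files hold scanned intensities of each spot. Per the file headers the authors used Agilent Feature Extraction 10.10.1.1 and EquCab1 positions. The deposited log10 ratios are of processed red over processed green, and the same log10 values stand in the authors' series matrix (largest difference 0, median 0 on each array).

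Normexp with an offset of 50 was applied to mean intensities and background medians. Loess then normalised each array, with control spots at weight 0. Control spots and outlier spots (7 to 16 per array, none of a member) were left out, and spots of a probe averaged. No spot was saturated. Probes well above background on all 4 arrays in red or on all 4 in green were kept (24233, 55.6%). Mean log2 ratios were tested against 0 in limma 3.58.1 under R 4.3.3. The tests were two-sided, and p-values were adjusted over these probes after Benjamini-Hochberg. Intervals are 95% limma intervals of the mean log2 ratio. They reflect only variation between these arrays, and single arrays can lie outside them. Limma shares the spread over all tested probes, so intervals and p-values do not follow from a probe's printed SD alone. Channel signals are values after Aquantile normalisation, as linear numbers, and are open to dye bias. Signals were not compared between genes. Mean signal was used to choose the brightest probe of a gene, and marker signals were summed. The fit was also run on simulated data with few changed probes and independent noise. Far more probes passed in the arrays, so that run does not bear on the calls here.

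The members and the lists of pathway and marker genes were chosen with earlier results of these data known. All members were named, and pathway genes where they passed. FOXO3 and GABARAPL2 were added after their values were seen. Of the 20 member probes, 15 had a RefSeq accession, of which 9 matched a RefSeq gene table of another assembly, used for names only, all under the array's symbol. Alternatives were other background corrections and normalisations, no filter or a stricter one, the methods' t-test, channels without the array as a replicate block, and leaving out each replicate.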

Additional observations from a re-analysis of the deposited data

Results flagged for a closer look

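The log2 ratio of SQSTM1 on replicate 2 was 0.0436, while the other 3 arrays lay at 0.14 to 0.17, a gap larger than the usual limit for an outlying value among 4. Of the 20 sets of ratios, 1 had such a value, and chance gives about 1 in 20. Without replicate 2, SQSTM1 had a mean of 0.16 and did not pass.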

How the results depend on the processing

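Past the threshold were 6 member probes, 5 of them with a fold change of 1.3, and 4 other pathway genes. Of all tested probes 17.1% passed, and 1.42% passed with that fold change. The 5 are the GABARAPL1 probes, which read 1 stretch and entered through red only, so nothing is read from these counts. The member counts were also 6 and 5, and the pathway count 3 to 5, with Agilent's processed signals, the series matrix, other background corrections, a running median, no filter, or limma with trend and robust estimation. Between 12.2% and 18.1% of all probes passed in these settings. With median centring in place of loess all 3 counts were 0 (limma; 5 member probes with an unadjusted p under 0.05), and with the methods' t-test 0 as well (9 member probes unadjusted). Over all 24233 probes 0.0495% and 0.0206% passed then, and 1571 and 6931 had an unadjusted p under 0.05. With channels tested without the replicate block, 1 member probe passed, A_69_P051934 (adjusted p = 0.0340), with a fold change of 1.3, and 0 pathway genes. Of all probes 2.48% passed without the block. With a filter on both channels 14 member probes remained, of which 1 passed, ATG5, and 0 with that fold change. Of all probes kept by that filter 16.6% passed. Leaving out a replicate gave 0 to 6, 0 to 5 and 0 to 4. Of all probes 0.00825%, 16.1%, 0.157% and 0% passed without replicates 1 to 4. Without replicate 1, 3 or 4, 6, 8 and 7 member probes had an unadjusted p under 0.05. Of all 24233 tested probes 6485, 7309 and 6694 had one, and nothing is read from the member counts. The cause of the fewer calls was not tested. None of the 6 member probes and 4 pathway genes changed sign. Markers and the further probes of GABARAPL2 and FOXO3 were not run under the alternatives. Signal over background limits GABARAPL1 and ULK1, and the number of arrays and the unsettled number of control cultures limit all calls.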
